A study of Mus musculus with 7 samples.

Results

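The Krüppel-like factors are transcription factors that bind CACCC and GC boxes through zinc fingers at their C-terminal end. 10 of their genes, *Klf2*, *Klf3*, *Klf4*, *Klf5*, *Klf6*, *Klf7*, *Klf9*, *Klf10*, *Klf13* and *Klf15*, were followed in muscle stem cells (MuSCs), chosen by symbol from the 56748 genes in the files. All 10 were found by their Ensembl identifiers, and 9 had enough counts to be tested among the 9489 genes that passed the filter on low counts. *Klf15* did not. RNA came from MuSCs of adult hind limb muscle, 3 samples from WT mice and 4 from mice homozygous for *Jag2sm*, a naturally occurring missense allele of the NOTCH ligand gene *Jag2*. The labels give the genotype of the latter as Jag2-/-. The sources do not say whether these mice also carried the *Pax7* CreERT2 and tdTomato reporter alleles of the study's lineage tracing. The cells had been sorted with magnetic beads (negative for CD31, CD45 and Sca1, positive for Integrin alpha7) and then grown in myoblast growth medium with serum and bFGF. The sources do not say that each sample came from 1 animal, so the p-values measure only the spread between these samples.

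Direct cDNA was sequenced on Nanopore flow cells, and the reads on genes numbered 187834, 1657016 and 1159203 in WT replicates 1 to 3 and 671660, 1421058, 1937581 and 1223863 in *Jag2sm* replicates 1 to 4. WT replicate 1 stood apart by its low depth and by its reads outside genes, 45.1% of those aligned, against 20.8% to 25.7% elsewhere. *Jag2sm* replicates 1, 2 and 4 also stood apart, since 50.8%, 46.7% and 46.0% of their reads did not align, against 3.07% in *Jag2sm* replicate 3 and 2.44% to 3.24% in WT. Levels are given as CPM, the count of a gene divided by the TMM-scaled total of its library and set to a common unit. In WT replicate 1, 3 counts made 17.3 CPM, and in the other libraries 1.48 to 4.24 CPM, so that low *Klf* genes were measured poorly in that library.

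The family divides by the proteins its members recruit. *Klf2*, *Klf4*, *Klf5*, *Klf6* and *Klf7* encode factors known mainly as activators, *Klf3* encodes a repressor that binds CtBP, and *Klf9*, *Klf10* and *Klf13* encode factors that bind the Sin3A corepressor, while *Klf15* is best known as a glucocorticoid-induced regulator of amino acid and lipid metabolism in muscle. *Klf2* and *Klf4* are known as targets of the MEK5-ERK5 kinase pathway in fusing myoblasts and of MEF2 factors in endothelium, and *Klf5* as a partner of MyoD at differentiation genes.

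The cells expressed genes of the myogenic lineage, which does not show that most of them were stem cells. All 9 myogenic markers were detected, among them *Pax7*, *Myf5* and *Myod1*, and their summed level was 8554, 5144 and 4842 CPM in WT and 3152, 3058, 3084 and 3612 CPM in *Jag2sm* libraries. Most of it came from *Des*, which encodes the muscle intermediate filament desmin and was the 1 called member (lower, edgeR adjusted p = 0.0244, and 0.0596 with the replicate block, 0.0601 without *Jag2sm* replicate 1 and 0.0890 without *Jag2sm* replicate 2), and *Chrna1*, an acetylcholine receptor subunit, which was not called (edgeR adjusted p = 0.0706). Of the 9 markers 4 had a positive log2 fold change. *Pax7*, the defining factor of MuSCs, was at 28.8, 95.7 and 80.6 CPM in WT and at 100.4, 129, 172 and 125 CPM in *Jag2sm* libraries, without overlap and not called (log2 fold change 0.80, edgeR adjusted p = 0.174). The muscle differentiation genes *Myog*, *Myh3* and *Acta1* had higher means, 2656, 2261 and 8825 CPM in WT and 529, 245 and 912 CPM in *Jag2sm*. *Ckm* of the same list was lower than *Pax7*, at 7.79 and 0.761 CPM. The share of differentiating cells in the samples was not tested. Endothelial markers, which matter here because *Klf2* and *Klf4* are abundant in endothelium, summed to 2.45 to 14.1 CPM over the 7 libraries, with *Kdr*, *Tie1* and *Esam* at 0. *Tek* was highest through WT and *Jag2sm* replicates 1 (11.5 and 11.3 CPM), and *Pecam1*, too low to test, had 2 counts in WT and 16 in *Jag2sm* libraries, at 0, 1.29 and 0 CPM against 1.41, 4.84, 2.96 and 1.63 CPM, without overlap. Immune markers summed to 0 to 5.69 CPM with *Ptprc*, *Lyz2*, *C1qa*, *Adgre1* and *Tyrobp* at 0 and *Cd68* the highest, and fibro-adipogenic markers to 0 to 25.5 CPM with *Lum* and *Dpt* at 0 and *Ly6a* the highest. *Pdgfra* of this list had 1 count in WT and 7 in *Jag2sm* libraries, also without overlap. *Ly6a* had 6 counts in WT and 43 in *Jag2sm* libraries. In CPM these are 0, 2.59 and 1.90 against 9.90, 19.3, 2.46 and 2.45, which overlapped. The fibro-adipogenic sums were 0, 12.3 and 6.64 CPM in WT and 25.5, 22.1, 8.38 and 5.71 CPM in *Jag2sm* libraries. All 9 mural markers were detected and summed to 870 to 2350 CPM, most of it *Acta2*, while *Rgs5* was at 645 CPM in *Jag2sm* replicate 1, at 25.3 to 40.4 CPM in the other *Jag2sm* libraries and at 11.5 to 14.2 CPM in WT (not called). The 1 called mural marker was *Abcc9*, a potassium channel subunit, at 40.4, 11.0 and 13.3 CPM in WT and 0, 2.76, 0.493 and 0.815 CPM in *Jag2sm* (log2 fold change -3.71, edgeR adjusted p = 0.0139), and *Mcam* was at -1.16 and not called. *Abcc9* had 0, 4, 1 and 1 counts in the *Jag2sm* libraries, and ranged from -4.68 to -3.26 with 1 library left out. The part of these cell types in the results was not tested.

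2 of the 9 tested *Klf* genes were called by edgeR's quasi-likelihood test at a Benjamini-Hochberg adjusted p under 0.05, *Klf5* lower and *Klf13* higher in *Jag2sm* MuSCs. Of all tested genes 6.26% were called, 1.42% higher and 4.84% lower, that is 135 and 459 genes, a balance that was 241 and 384 with library size alone. An unadjusted p under 0.05 was reached by 6 of the 9 *Klf* genes and by 19.7% of all tested genes. DESeq2 called 4 of the 10, *Klf5*, *Klf9*, *Klf10* and *Klf13* (6.35% of all its tested genes), edgeR with the replicate number as a block called *Klf5* and *Klf9* (5.95%), and edgeR with library size alone called *Klf10* and *Klf13* (6.59%). 5 of the 9 did not overlap between the genotypes, with *Klf7*, *Klf10* and *Klf13* above WT in every *Jag2sm* library and *Klf5* and *Klf9* below, against 22.5% of all tested genes (10.3% above and 12.2% below). The median log2 fold change was 0.25 over the 9 genes and 0.05 over all tested genes, whose middle 50% lay between -0.30 and 0.36. With library size alone in place of TMM scaling the median of all genes moved to 0.21, so values under that scaling lie higher than those given.

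The 250 bases before the start of the canonical transcript are shown for the 4 genes whose directions carry the comparison, *Klf5* and *Klf9* on the lower side and *Klf10* and *Klf13* on the higher side, in the direction of transcription. Capitals mark a CACCC box or its complement GGGTG, the letters that members of the family bind themselves. They were read from GRCm39 with the transcript starts of GENCODE M39.

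*Klf5* (chr14:99535836-99536085, plus strand): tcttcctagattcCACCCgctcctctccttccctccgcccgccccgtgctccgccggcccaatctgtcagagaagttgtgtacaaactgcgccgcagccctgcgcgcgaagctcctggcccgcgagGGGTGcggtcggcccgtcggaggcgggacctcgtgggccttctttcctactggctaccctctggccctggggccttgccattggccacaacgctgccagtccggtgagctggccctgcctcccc

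*Klf9* (chr19:23117937-23118186, plus strand): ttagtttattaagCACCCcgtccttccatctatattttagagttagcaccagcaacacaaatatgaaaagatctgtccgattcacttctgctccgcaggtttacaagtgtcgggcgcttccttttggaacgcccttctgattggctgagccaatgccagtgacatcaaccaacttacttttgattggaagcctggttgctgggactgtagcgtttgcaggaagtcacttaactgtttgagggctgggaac

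*Klf10* (chr15:38300960-38301209, minus strand): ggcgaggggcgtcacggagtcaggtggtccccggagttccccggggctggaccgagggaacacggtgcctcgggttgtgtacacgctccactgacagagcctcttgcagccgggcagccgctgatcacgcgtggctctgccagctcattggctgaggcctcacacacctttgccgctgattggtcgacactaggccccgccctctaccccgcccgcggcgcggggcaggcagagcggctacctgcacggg

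*Klf13* (chr7:63588664-63588913, minus strand): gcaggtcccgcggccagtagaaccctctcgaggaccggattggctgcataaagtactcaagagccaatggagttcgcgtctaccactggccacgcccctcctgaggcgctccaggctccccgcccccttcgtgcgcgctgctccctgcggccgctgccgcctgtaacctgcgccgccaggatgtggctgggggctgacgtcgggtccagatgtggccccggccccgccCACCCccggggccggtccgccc

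The *Klf5* window held 2 CACCC boxes, the *Klf9* and *Klf13* windows 1 each and the *Klf10* window 0. On either strand, CACCC was present in 5 of the 10 windows and in 52.9% of 21751 windows of protein-coding genes, GGGCGG (a GC box) in 8 and 36.3%, CAGCTG (an E-box) in 0 and 11.9%, and the MEF2 element in 1, that of *Klf6*, and 2.80%. In the *Klf13* window the CACCC box overlapped a GC box. The *Klf9* window was the poorest in G and C, at 46.4% with 7 CpG dinucleotides, and the other windows ranged from 57.2% to 82.4%, against a median of 53.2% over all windows. These are matches of letters and not measured sites.

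*Klf5*, on chromosome 14 from 99536086 to 99552473, encodes an activator of proliferation in epithelium and smooth muscle. Its level was 415, 182 and 211 CPM in WT and 154, 75.3, 105 and 85.6 CPM in *Jag2sm* libraries, from 72 to 281 counts. The lowest WT library lay above the highest *Jag2sm* library, and WT replicate 1 was the highest of all. The mean fell from 269 ± 127 (SD, n = 3) to 105 ± 34.98 CPM (SD, n = 4). The log2 fold change was -1.31 ± 0.33 (SE), with a 95% interval of -2.05 to -0.57 (edgeR adjusted p = 0.0433). Without WT replicate 1 it was -0.93 and no longer called (edgeR adjusted p = 0.0781), and among the 7 fits that each left out 1 library it was called in the 1 without *Jag2sm* replicate 1, while the other fits gave edgeR adjusted p-values from 0.0539 without WT replicate 2 to 0.143 without *Jag2sm* replicate 2. With library size alone it was -1.14 (edgeR adjusted p = 0.0730).

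Among the other activator-type genes, *Klf6*, an early response gene of injured tissue on chromosome 13, had 74.9, 78.2 and 63.5 CPM in WT and 129, 106, 159 and 75.8 CPM in *Jag2sm* libraries. *Jag2sm* replicate 4 lay below WT replicate 2, so the genotypes overlapped, and the log2 fold change of 0.71 ± 0.27 (SE) was not called (edgeR adjusted p = 0.173). *Klf7*, which is known from neurons and sensory axon growth, is on chromosome 1. It was at 0, 12.9 and 11.4 CPM in WT and 19.8, 24.9, 28.1 and 17.1 CPM in *Jag2sm* libraries. All *Jag2sm* libraries lay above all WT libraries, but the 0 in WT replicate 1 allows up to 17.3 CPM, above the lowest *Jag2sm* value. The log2 fold change of 1.06 ± 0.40 (SE) was not called (edgeR adjusted p = 0.164), and leaving out WT replicate 1 gave 0.89.

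*Klf2* and *Klf4*, the flow-responsive genes of endothelium, did not separate the genotypes. *Klf4*, on chromosome 4, was at 40.4, 22.6 and 13.3 CPM in WT and 15.6, 26.9, 35.5 and 19.6 CPM in *Jag2sm* libraries. *Klf2*, on chromosome 8, was at 11.5, 10.3 and 8.54 CPM in WT and 7.07, 5.53, 18.2 and 3.26 CPM in *Jag2sm* libraries. The genotypes overlapped in both genes, and *Jag2sm* replicate 3 was the highest of its group. The log2 fold change of *Klf4* was 0.25 with a 95% interval of -0.61 to 1.12, and that of *Klf2* -0.09 with an interval of -1.36 to 1.19 (edgeR adjusted p = 0.781 and 0.970). The sign of *Klf2* turned to 0.077 with library size alone. For *Klf2* the interval holds changes of more than 1 on the log2 scale in either direction.

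**Figure D1:**
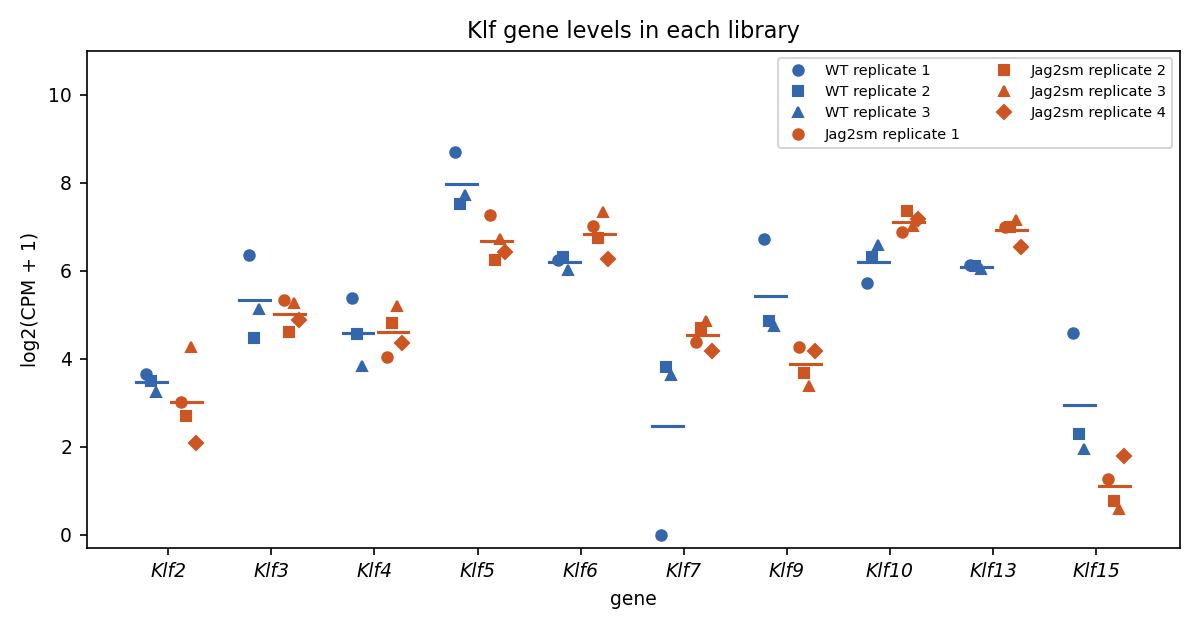
Level of each *Klf* gene in each library as log2(CPM + 1) on a linear axis, with WT in blue, *Jag2sm* in orange, a symbol per replicate number and a bar at the mean of the plotted values. *Klf5* and *Klf9* points of *Jag2sm* lie below all WT points and those of *Klf7*, *Klf10* and *Klf13* above, and the *Klf7* point at 0 is WT replicate 1.

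*Klf3*, on chromosome 5, encodes the CtBP-binding repressor that is abundant in muscle and erythroid cells. It was at 80.7, 21.3 and 34.1 CPM in WT and 39.6, 23.5, 37.4 and 28.5 CPM in *Jag2sm* libraries, and the *Jag2sm* values lay inside the WT range. The log2 fold change was -0.17 with a 95% interval of -1.06 to 0.71 (edgeR adjusted p = 0.870). It turned to 0.22 without WT replicate 1, the library with the highest value. A lncRNA gene on the opposite strand, *Gm20033*, shares exonic bases with *Klf3* and had 13 counts in WT and 19 in *Jag2sm* libraries, and the strand setting of the counting was not stated. *Klf7*, *Klf9* and *Klf10* also have such a partner on the opposite strand, each with 0 or 1 counts in either genotype.

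Of the Sin3A-binding members, *Klf13* was called (higher), and *Klf10*, at a positive log2 fold change, and *Klf9*, at a negative one, were not. *Klf13*, on chromosome 7 from 63536099 to 63588663, is known as a regulator of the chemokine RANTES in T cells. It was at 69.2, 67.9 and 64.5 CPM in WT and 126, 126, 140 and 92.1 CPM in *Jag2sm* libraries. The WT libraries were close together and all *Jag2sm* libraries lay above them, replicate 4 the least. The mean rose from 67.2 ± 2.42 (SD, n = 3) to 121 ± 20.5 CPM (SD, n = 4), a log2 fold change of 0.86 ± 0.21 (SE) with a 95% interval of 0.39 to 1.33 (edgeR adjusted p = 0.0402). With the replicate number as a block it was 0.97 and not called (edgeR adjusted p = 0.0721). With 1 library left out its log2 fold change ranged from 0.78 to 0.98. It stayed called without WT replicate 1 or *Jag2sm* replicate 4, and was not called without WT replicate 2 or 3 or *Jag2sm* replicate 1, 2 or 3 (edgeR adjusted p up to 0.185).

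*Klf10*, on chromosome 15 from 38291703 to 38300959, is the TGF-beta-inducible early gene. Its level was 51.9, 78.2 and 94.8 CPM in WT and 116, 162, 128 and 144 CPM in *Jag2sm* libraries, with no overlap. The means were 75.0 ± 21.7 (SD, n = 3) and 138 ± 20.2 CPM (SD, n = 4). The log2 fold change of 0.80 ± 0.23 (SE) missed the threshold (edgeR adjusted p = 0.0717) and passed it in DESeq2 (adjusted p = 0.0427) and with library size alone (edgeR adjusted p = 0.0332).

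*Klf9*, on chromosome 19 from 23118187 to 23148497, is a glucocorticoid and thyroid hormone response gene. It was at 104, 27.8 and 25.6 CPM in WT and 18.4, 11.7, 9.36 and 17.1 CPM in *Jag2sm* libraries. All *Jag2sm* libraries lay below all WT libraries, and WT replicate 1 was far above the other WT libraries. The log2 fold change of -1.55 ± 0.49 (SE) missed the threshold (edgeR adjusted p = 0.0928). Leaving out WT replicate 1 gave -0.99 (edgeR adjusted p = 0.109). It was called with the replicate number as a block (-1.67, edgeR adjusted p = 0.0279) and by DESeq2 (-1.69, adjusted p = 0.0422).

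*Klf15*, on chromosome 6, had 4, 6 and 3 counts in WT and 1, 1, 1 and 3 in *Jag2sm* libraries, too few for the filter. In CPM these are 23.1, 3.88 and 2.85 in WT and 1.41, 0.691, 0.493 and 2.45 in *Jag2sm*. Summed over libraries, 13 counts in WT stood against 6 in *Jag2sm*, a log2 ratio of -2.08 relative to depth with a 95% interval of -3.76 to -0.58 that covers counting error only. Without the filter it had an edgeR adjusted p of 0.166.

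**Figure D2:**
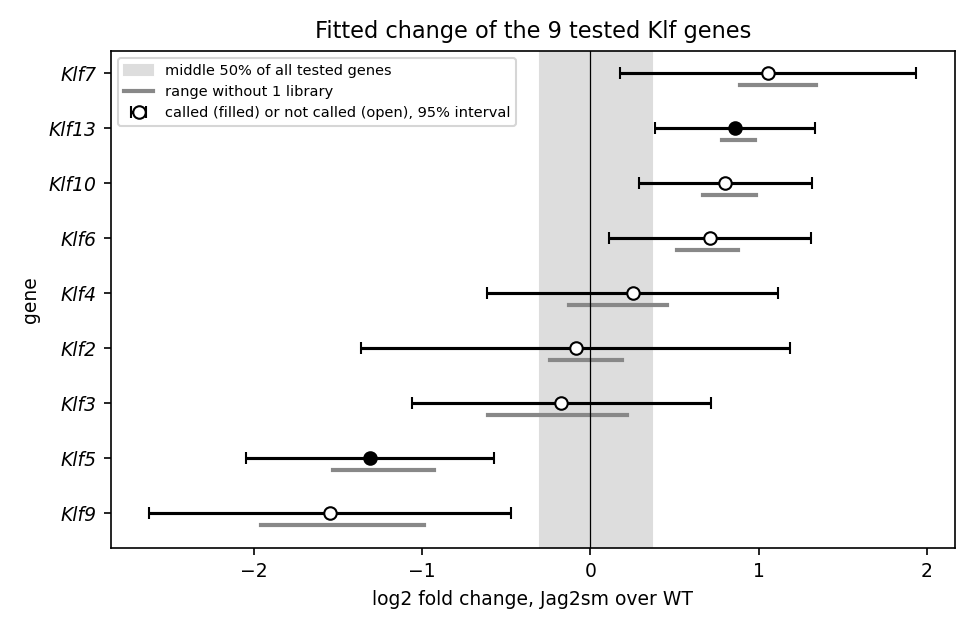
Log2 fold change of *Jag2sm* over WT for the 9 tested genes (horizontal axis), with the 95% interval of the edgeR fit, the range of values with each library left out in grey below, and the middle 50% of all tested genes shaded. *Klf5* at -1.31 and *Klf13* at 0.86 are the called genes.

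The exact two-sided permutation test over the 7 libraries, on log2 CPM of single genes, gave p = 0.0286 for *Klf9* and *Klf10*, the smallest p it can give, and p = 0.0571 for *Klf5* and *Klf13*, without adjustment for the number of genes. These genes did not overlap between the genotypes, so the p-values restate that separation and add no evidence. The same permutation test gave p = 0.0857 for *Klf6*, 0.486 for *Klf2*, 0.657 for *Klf3* and 0.943 for *Klf4*. No such p is given for *Klf7*, whose order rests on 0 counts in WT replicate 1, or for *Klf15*, whose order rests on 1 to 6 counts a library. The labels' batch numbers let WT and *Jag2sm* be compared within batches 1, 2 and 3, while batch 4 holds only a *Jag2sm* library. *Klf13* was higher by 0.85, 0.88 and 1.10 on the log2 scale and *Klf10* by 1.13, 1.04 and 0.42. *Klf5* fell by 1.42, 1.25 and 1.00, and *Klf9* fell by 2.39, 1.13 and 1.30. Of the 9 tested genes 6 had the same sign in each batch, against 44.2% of all tested genes (with a prior count of 2, which sets the value of *Klf7* in batch 1). *Klf5*, *Klf7*, *Klf9*, *Klf10* and *Klf13* did not overlap between the genotypes, so their signs could not differ between batches and add no evidence. The remaining gene of the 6 was *Klf6*. *Klf4* differed by -1.28, 0.24 and 1.31, so its direction turned between batches.

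**Figure D3:**
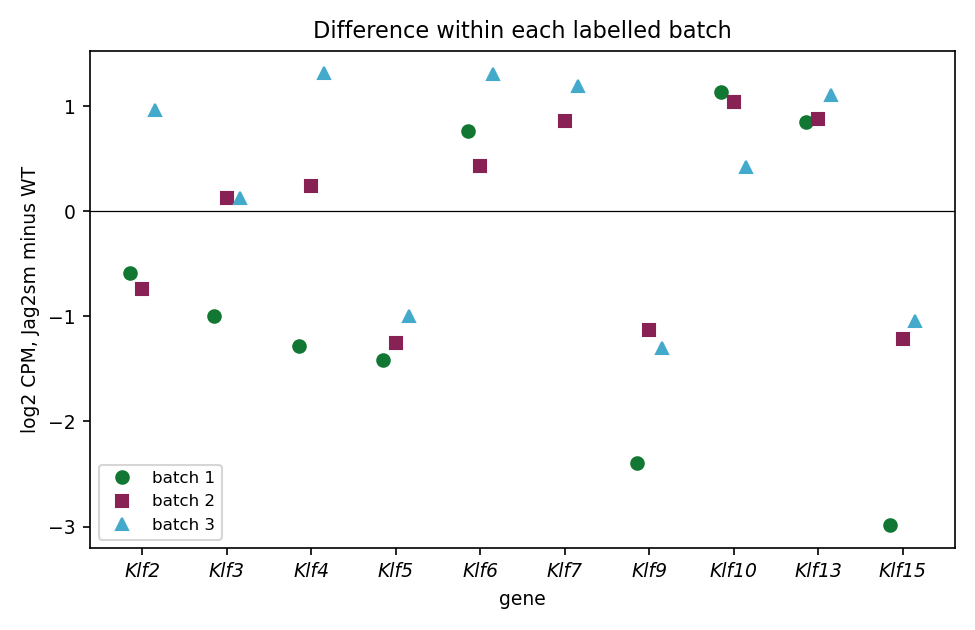
Difference of log2 CPM between *Jag2sm* and WT within each of the 3 batches that hold both genotypes, by gene. *Klf7* in batch 1 is left out because WT had 0 counts, and *Klf2*, *Klf3* and *Klf4* lie on both sides of 0.

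The levels of the *Klf* genes were compared with each other per kilobase of the longest transcript. In WT the order began with *Klf5* at 78.6 CPM per kb, followed by *Klf10* at 24.6, *Klf6* at 16.9 and *Klf13* at 10.5. In *Jag2sm* it began with *Klf10* at 45.1, *Klf5* at 30.6, *Klf6* at 27.5 and *Klf13* at 19.0. *Klf5* lay above *Klf10* in 3 of 3 WT libraries and *Klf10* above *Klf5* in 3 of 4 *Jag2sm* libraries. *Klf5* and *Klf6* in *Jag2sm* cannot be ordered, since *Klf5* was higher in 2 of 4. The order turns with the unit: in CPM without regard to length, *Klf5* ranked 4 in *Jag2sm*, at 105 CPM against 138 for *Klf10*, 121 for *Klf13* and 117 for *Klf6*, and it ranked 1 in WT in either unit. The 10 genes together summed to 870, 505 and 530 CPM in WT and to 626, 563, 661 and 486 CPM in *Jag2sm* libraries, which overlapped.

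The composition of these reads does not depend on the scaling of libraries. *Klf5* made up 47.7%, 36.0% and 39.9% of them in WT and 24.6%, 13.4%, 15.9% and 17.6% in *Jag2sm*. *Klf13* made up 7.95%, 13.4% and 12.2% in WT and 20.1%, 22.5%, 21.2% and 19.0% in *Jag2sm*. A lower *Klf5* share raises the shares of the other genes. The shares of *Klf6* did not overlap between the genotypes, while its CPM did. There were 6.0, 2.68 and 3.28 *Klf5* reads per *Klf13* read in WT and 1.22, 0.596, 0.747 and 0.929 in *Jag2sm*. This pair was the 2 called genes, each without overlap and in opposite directions. Their ratio could therefore not overlap, and it adds no evidence. A ratio of 2 genes shows unequal change, not which of them changed. In bulk RNA, fewer cells of a type and less RNA per cell cannot be told apart.

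**Figure D4:**
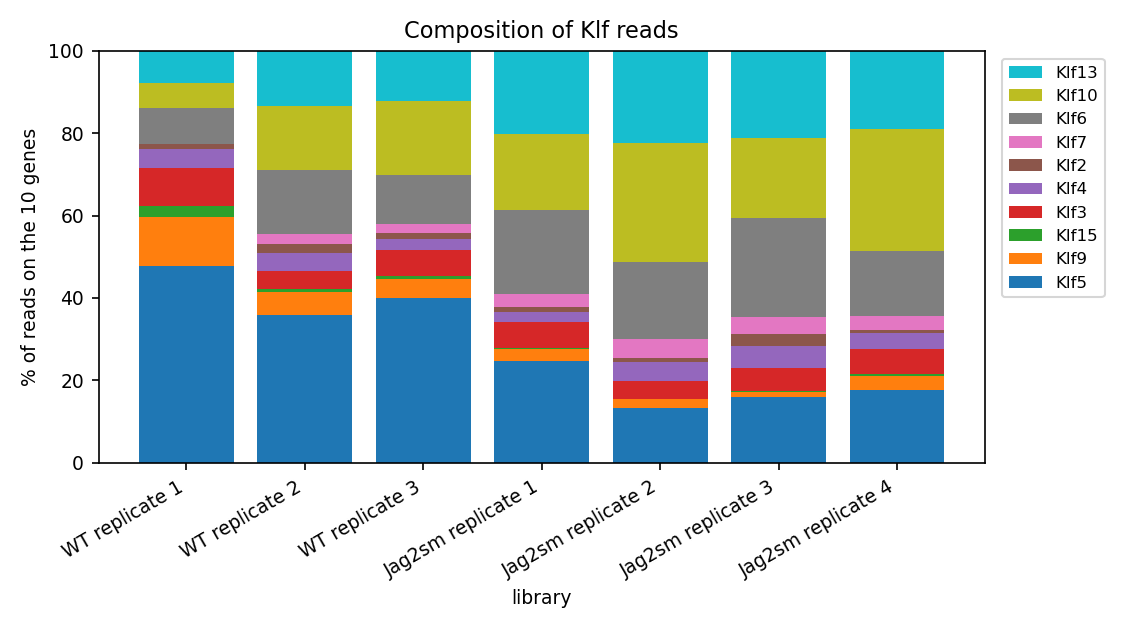
Share of the reads on the 10 genes taken by each gene (vertical axis, percent) in each library. *Klf5* at the base takes 36.0% to 47.7% in the WT libraries and 13.4% to 24.6% in the *Jag2sm* libraries.

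Genes that act before, beside or after the *Klf* genes were read from lists chosen for their roles. Of 17 other *Klf* and *Sp* genes 6 were tested and 0 were called in edgeR, with 0 at an unadjusted p under 0.05 (the median log2 fold change was -0.06). By mean CPM, without regard to length, the highest was *Sp1*, a general GC box factor, at 0.41 (edgeR adjusted p = 0.388). Of 12 cofactors 11 were tested and 0 were called in edgeR, with 1 at an unadjusted p under 0.05 (median -0.13), and the highest in CPM was *Crebbp*, a histone acetyltransferase, at -0.19 (edgeR adjusted p = 0.705). Neither list had a call in DESeq2 or limma-voom. All 12 TGF-beta genes were tested and 0 were called in edgeR, DESeq2 or limma-voom, with 2 at an unadjusted p under 0.05 (median 0.21), and the highest in CPM was *Id1*, an inhibitor of myogenic bHLH factors, at 0.50 (edgeR adjusted p = 0.417). Of 12 glucocorticoid-responsive genes 11 were tested and 0 were called in edgeR, with 4 at an unadjusted p under 0.05, against 2 called in DESeq2 and 0 in limma-voom (median 0.27). The share at an unadjusted p under 0.05 over all tested genes was the 19.7% given above. The highest in CPM was *Errfi1*, a feedback inhibitor of the EGF receptor, at 0.96 (edgeR adjusted p = 0.0698). The other three at an unadjusted p under 0.05, named after their values were seen, had negative values: *Tsc22d3*, the glucocorticoid-induced leucine zipper, at -1.25, *Per1*, a clock gene, at -1.08 and *Dusp1*, a MAP kinase phosphatase, at -1.10. The DESeq2 calls were *Errfi1* (higher) and *Tsc22d3* (lower).

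Of 6 tested genes of the 8 in the MEK5-ERK5-MEF2 list, 3 fell and 0 rose (median -0.84), against 4.84% lower over all tested genes. All 3 encode MEF2 factors, and 1 stayed called without *Jag2sm* replicate 2. *Mef2c*, the muscle MEF2 gene, was at 1049, 462 and 528 CPM in WT and at 58.0, 42.8, 15.8 and 75.0 CPM in *Jag2sm* libraries, with no overlap. Its log2 fold change was -3.83 (edgeR adjusted p = 0.00285), and that of *Mef2a* was -1.23 (edgeR adjusted p = 0.0131, and 0.0561 without *Jag2sm* replicate 2). *Mef2d* fell by 1.06 on the log2 scale (edgeR adjusted p = 0.0366) and was not called with the replicate block (edgeR adjusted p = 0.0625) or without WT replicate 2 or 3 or *Jag2sm* replicate 2, 3 or 4 (edgeR adjusted p from 0.0560 to 0.131).

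Of 10 tested KLF15 target genes of 12, 3 fell and 0 rose (median -0.61), against 4.84% lower over all tested genes, and 7 had an unadjusted p under 0.05. The 3 called genes were *Slc2a4*, the insulin-responsive glucose transporter GLUT4, at -4.97 (edgeR adjusted p = 0.0109), *Trim63*, the ubiquitin ligase MuRF1, at -3.38 (0.0131 by the same test, and 0.0514 without *Jag2sm* replicate 2), and *Acsl1*, a long-chain acyl-CoA synthetase, at -1.98 (0.00513). With 1 library left out *Slc2a4* ranged from -5.65 to -3.92 and *Trim63* from -4.02 to -2.82. *Slc2a4* had 0, 1, 3 and 3 counts in the *Jag2sm* libraries. DESeq2 called 4, 3 lower and 1 higher, the latter *Ddit4*, a stress-induced inhibitor of mTOR named after its values were seen. *Ddit4* was at 0, 47.8 and 28.5 CPM in WT and at 137, 106, 55.2 and 97.8 CPM in *Jag2sm* libraries, with a log2 fold change of 1.56 in edgeR (adjusted p = 0.0763). *Fbxo32*, the ubiquitin ligase atrogin-1 and likewise named after its values were seen, had a log2 fold change of 1.11 and was not called (edgeR adjusted p = 0.188). The other two at an unadjusted p under 0.05 had negative values and were not called, *Acadm*, an acyl-CoA dehydrogenase, at -0.84 (edgeR adjusted p = 0.0596) and *Dbt*, a subunit of the branched-chain keto acid dehydrogenase, at -0.85 (edgeR adjusted p = 0.217). Of 13 tested immediate early genes of 16, 1 rose and 0 fell (median -0.15), a share near the 6.26% called over all tested genes, and 5 had an unadjusted p under 0.05. It was *Myc*, a growth-promoting factor, with 74.9, 68.5 and 53.1 CPM in WT and 107, 162, 141 and 112 CPM in *Jag2sm* libraries, a log2 fold change of 1.04 (edgeR adjusted p = 0.0270) that was not called with the replicate block (edgeR adjusted p = 0.0602) or without WT replicate 2 or 3 or *Jag2sm* replicate 2 (edgeR adjusted p from 0.0871 to 0.165). The endothelial targets of KLF2 and KLF4 were mostly near 0, and only *Thbd* of 8 was tested, at 1.46 (edgeR adjusted p = 0.197). *Thbd* was the gene called with the replicate block.

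Most tested genes of muscle differentiation were called lower in *Jag2sm* MuSCs, as *Klf5* was, and a joint change was not tested. Of 13 tested genes of 14, 11 fell and 0 rose, with a median log2 fold change of -2.68, against 4.84% lower over all tested genes. The count was 5 without *Jag2sm* replicate 2 and 7 without WT replicate 2, WT replicate 3 or *Jag2sm* replicate 1. Called in each of these fits, with *Mymk*, a fusion factor, were *Myh3* and *Myh8*, embryonic and neonatal myosin heavy chains, *Tnnt3*, a fast troponin T, and *Myf6*, a myogenic factor. With all libraries *Myh3*, *Myh8*, *Tnnt3* and *Myf6* were at -3.21, -3.88, -3.30 and -4.33 (edgeR adjusted p = 0.00539, 0.00695, 0.00539 and 0.00656). With 1 library left out *Myh8* ranged from -4.70 to -3.51 and *Myf6* from -4.82 to -3.56. *Myf6* had 5, 3, 7 and 1 counts in the *Jag2sm* libraries. *Myh3* was at 2623, 2006 and 2155 CPM in WT and at 307, 212, 70.0 and 391 CPM in *Jag2sm* libraries. No *Jag2sm* library reached the WT range, and replicate 3 was the lowest. The part of differentiation in the *Klf* results was not tested.

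**Figure D5:**
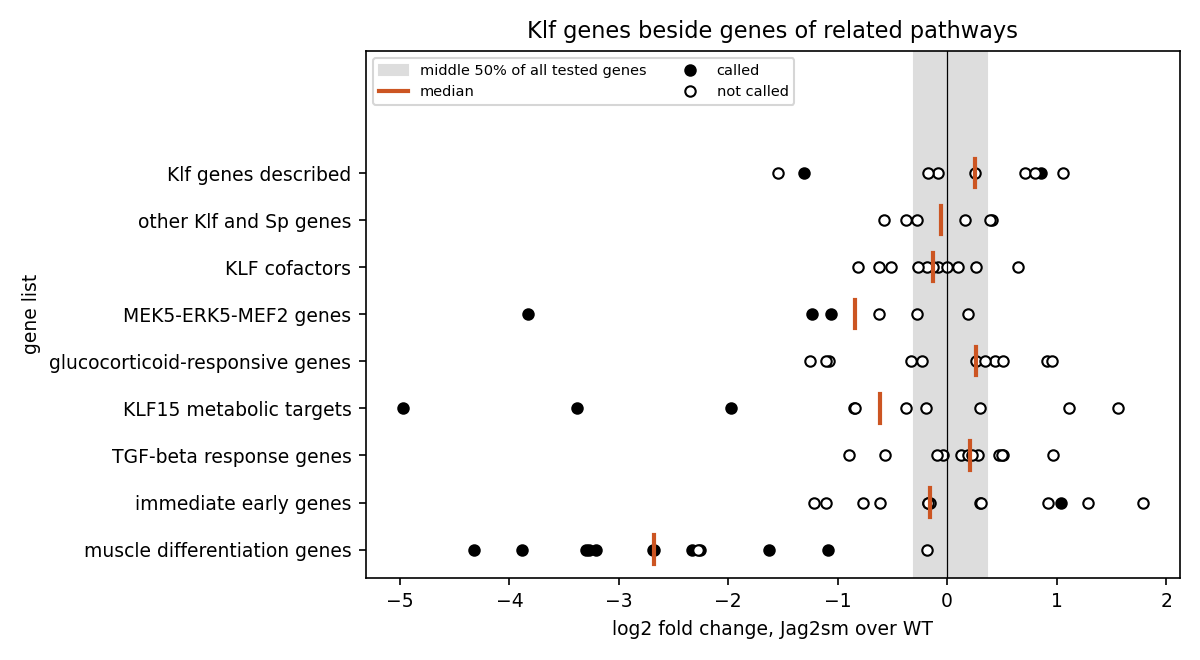
Log2 fold change of *Jag2sm* over WT (horizontal axis) for each tested gene of the *Klf* members and of 8 related lists, with called genes filled, list medians as bars and the middle 50% of all tested genes shaded. Called genes of the MEF2, KLF15 target and muscle differentiation lists lie to the left of 0.

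*Jag2* itself, the gene that carries the allele, was at 80.7, 114 and 116 CPM in WT and at 42.4, 78.8, 71.9 and 77.4 CPM in *Jag2sm* libraries. The *Jag2sm* libraries lay below all WT libraries, and the log2 fold change of -0.64 ± 0.24 (SE) was not called (edgeR adjusted p = 0.166). A missense allele need not change the amount of RNA, so this does not check the labels.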

How the data were processed

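Per the labels and the study's methods, the authors made direct cDNA libraries, used minimap2 2.17 for alignment to GRCm39 and HTSeq for counting per gene, and deposited raw counts of each library. The annotation release and strand setting are not given in the sources used here. A further table of the authors' own comparison (mean, fold change, p-values) was not used. The 5 summary counts of each file were left out of the tests. Of 56748 identifiers 56017 were found in GENCODE M39.

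Counts were fitted in R 4.3.3 with edgeR 4.0.16 (filterByExpr with a minimum count of 10 and minimum total of 15, TMM, glmQLFit and glmQLFTest, Benjamini-Hochberg over all 9489 tested genes, threshold 0.05), without covariates. CPM were computed from TMM-scaled library sizes. Intervals of log2 fold changes are t intervals from the fit, and that of *Klf15* is exact binomial (Clopper-Pearson). Alternatives used DESeq2 1.42.0, limma-voom (limma 3.58.1), other scalings and filters, counts thinned to the smallest library, *Jag2sm* replicate 3 alone and leaving out each library. The scripts were tested on simulated data. Python 3.11.15, SciPy 1.17.1 and pysam 0.24.0 served the rest.

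The labels give batch numbers equal to the replicate numbers, so replicates 1, 2 and 3 of the genotypes can be paired. The study's methods name no such term, so the main fit is unpaired, and the pairing entered only the fit with the replicate block and the within-batch differences. Deviations from the genotype means correlated at 0.0740, 0.0144 and 0.0539 between same-numbered libraries across genes, which are not independent. Between differently numbered libraries of the 2 genotypes these correlations ranged from -0.0944 to 0.0644. All 10 members are named, and in other lists the called genes (at most 4, by smallest p) or, with none called, the gene with the highest mean CPM. Further genes of these lists, such as *Mymk*, *Acadm* and *Dbt*, were named after their values were seen. Members and lists were chosen with earlier results of these data known, so they are not independent evidence.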

Additional observations from a re-analysis of the deposited data

How the results depend on the processing

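The direction of *Klf5*, *Klf6*, *Klf7*, *Klf9*, *Klf10* and *Klf13* was the same under every alternative that tested them. The number of *Klf* genes called, 2, was 4 in DESeq2, 0 of 4 tested after thinning, 0 with *Jag2sm* replicate 3 alone, and 0 to 1 with 1 library left out (1 without WT replicate 1 or *Jag2sm* replicate 1 or 4). *Klf5* was -1.14 with library size alone, -1.37 after thinning and -1.27 with *Jag2sm* replicate 3 alone, and -1.53 to -0.93 with 1 library left out. *Klf13* was 0.97 with the replicate block, 0.84 after thinning and 1.10 with *Jag2sm* replicate 3 alone, and 0.78 to 0.98 with 1 library left out. *Klf9* was -1.69 in DESeq2, -1.50 without a filter and -1.67 with the replicate block, and *Klf10* was 0.82 in DESeq2 and 0.96 with library size alone. *Klf2* turned to 0.077 with library size alone, 0.063 with the block and 0.92 with *Jag2sm* replicate 3 alone, and *Klf3* to 0.072 in limma-voom, 0.0076 with at least 10 counts in every library and 0.12 with *Jag2sm* replicate 3 alone. With 1 library left out *Klf2* ranged from -0.24 to 0.19, *Klf3* from -0.61 to 0.22 and *Klf4* from -0.13 to 0.45. The causes were not tested.

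The count of called genes, 594, was 1248 without a filter, 274 with at least 10 counts in every library, 248 after thinning, 221 with *Jag2sm* replicate 3 alone and 251 to 616 with 1 library left out, the lowest without *Jag2sm* replicate 2. Of the 594 genes 135 were higher, against 241 with library size alone, 468 without a filter, 33 without WT replicate 2, 20 without WT replicate 3, 30 without *Jag2sm* replicate 2 and 220 without *Jag2sm* replicate 3. The calls in the MEK5-ERK5-MEF2 list, 3, were 2 with library size alone, 2 with the block and 2 after thinning. With 1 library left out they were 1 to 3, the lowest without *Jag2sm* replicate 2. Those in the glucocorticoid list, 0, were 2 in DESeq2, 1 with library size alone, 4 without a filter, 1 with at least 10 counts in every library and 1 after thinning (4 tested in either of the last). Those in the KLF15 target list, 3, were 5 without a filter, and 0 with at least 10 counts in every library and 0 after thinning, where none of the 3 called genes had enough counts to be tested, and those of immediate early genes, 1, were 4 without a filter, 0 with the block, 0 after thinning, 0 with *Jag2sm* replicate 3 alone and 0 to 1 with 1 library left out. Endothelial targets, 0, gave 1 without a filter, 1 with the block and 0 to 1 with 1 library left out. Muscle differentiation, 11, gave 12 in limma-voom and 12 without a filter. It gave 10 with library size alone, 10 with a robust edgeR fit, 9 with the block and 9 with at least 10 counts in every library. With 1 library left out it gave 5 to 11, the lowest without *Jag2sm* replicate 2. The block changed the calls of *Klf9*, *Klf13*, *Mef2d*, *Myc*, *Thbd*, *Mymx*, *Des*, *Cdkn1a* and *Tnnt1* and no other call among the listed genes. Fits with *Jag2sm* replicate 3 alone assume that it varies as the WT libraries do. At the depth of WT replicate 1, *Klf2* had 2 counts, *Klf7* 0 and *Klf15* 4.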
